A study of Homarus americanus with 19 samples.

Results

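In an RNA-seq experiment on the American lobster (Homarus americanus), 3 of its heat shock 70 kDa genes and a gene for an AN1-type zinc finger protein were followed through every larva. The genes are LOC121855754, LOC121855757, LOC121855758 and LOC121878881 in the Kallisto count table, which rests on the reference transcriptome, and they are 4 of its 25667 genes. The ortholog group s2f_0001499003, named ZFAND2A, is 1 of 13933 groups in the Seq2Fun count table, from the same libraries. All 5 features were selected on their fold changes between exposed and control larvae, in which they were much lower after exposure, so their differences from control larvae are given as a description and without a test. The comparison between the exposed groups, the relations between larvae of 1 group and the split of reads between the genes were not themselves used in the choice. These were tested, although they come from the same larvae as the choice.

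Each library came from 1 whole larva. There were 6 larvae exposed to 1-methylnaphthalene at 0.3 mg/L as the positive control, 7 larvae exposed to a 72% water accommodated fraction of heavy crude oil (WAF), and 6 control larvae kept in seawater filtered at 0.22 µm. Exposure lasted 24 h in all groups, and the larvae come from 1 experiment. The supplementary note of the case study gives a different, higher concentration of 1-methylnaphthalene than the labels do, and the label is used here. The labels describe the animals as embryonic, day 9, whereas the case study describes larvae of the first stage. Replicate numbers in the text are those of the labels and are used only to name a larva.

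Heat shock 70 proteins are chaperones that bind unfolded stretches of other proteins and release them in a cycle driven by ATP. Animals carry cognate forms that are made all the time and inducible forms whose genes are switched on by heat shock factor when proteins unfold. ZFAND2A, also known as AIRAP in mammals, has AN1-type zinc fingers, associates with the proteasome in mammalian cells and is itself a target of heat shock factor there. In whole larvae, fewer cells of a type and less RNA per cell cannot be told apart.

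The libraries held between 14295653 and 44466373 counts in the Kallisto table and between 4580939 and 22681602 counts in the Seq2Fun table. A single long non-coding RNA, LOC121857831, took between 7.44% and 26.4% of the Kallisto counts in methylnaphthalene larvae, between 7.47% and 28.0% in WAF larvae and between 10.2% and 20.5% in control larvae. Of the tissue markers that the study's list sorted by significance between methylnaphthalene and control larvae names, 27 hepatopancreas genes (trypsins and hemocyanins) summed to between 3422 and 16343 CPM in methylnaphthalene larvae, between 168 and 12323 CPM in WAF larvae and between 275 and 1207 CPM in control larvae, and none was at 0 in all larvae. The highest WAF larva was replicate 6. The sums of 23 cuticle genes overlapped between all groups, and the 1 muscle gene, troponin I, lay below all control larvae in 5 of 6 methylnaphthalene and 4 of 7 WAF larvae. Levels are in CPM, counts scaled to the library size after TMM normalization, so levels of the same feature are compared between larvae and no level is compared between genes. A feature is called a differentially expressed gene (DEG) at an adjusted p below 0.05, from edgeR's quasi-likelihood test over all features of its table, together with an absolute log2 fold change above 1.5. All 5 features passed the filters on abundance and variance, as did 18727 genes and 10925 ortholog groups in total.

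In the heat shock 70 gene LOC121855754, levels were between 0.203 and 2.82 CPM in methylnaphthalene larvae (median 1.13 CPM), between 0.310 and 1.18 CPM in WAF larvae (median 0.487 CPM), and between 7.86 and 113 CPM in control larvae (median 43.6 CPM). The lowest control larva lay 2.79-fold above the highest exposed larva, so neither exposed group overlapped with the control larvae. The control larvae themselves differed 14.4-fold between their lowest and highest member.

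LOC121855757 had the most reads of these 3 heat shock 70 genes, with 23940 counts over all 19 larvae. Its levels were between 0.354 and 15.2 CPM in methylnaphthalene larvae (median 4.51 CPM), between 0.703 and 4.32 CPM in WAF larvae (median 1.36 CPM), and between 22.5 and 290.6 CPM in control larvae (median 142 CPM). Here the gap was narrowest, since the lowest control larva, replicate 6, lay only 1.48-fold above the highest exposed larva, methylnaphthalene replicate 2.

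For LOC121855758 the levels were between 0.155 and 4.44 CPM in methylnaphthalene larvae (median 1.70 CPM), between 0 and 2.15 CPM in WAF larvae (median 0.717 CPM), and between 10.1 and 99.6 CPM in control larvae (median 47.2 CPM). The 0 belongs to WAF replicate 1, the shallowest library. There, 0 counts allow a level of up to 0.210 CPM before TMM scaling (3 counts, counting error only). The TMM factor of this library was 0.796, so the limit is higher on the scale of the levels given here. Again every control larva lay above every exposed larva.

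The AN1-type zinc finger gene LOC121878881 varied less among larvae of 1 group than the heat shock 70 genes did. Its levels were between 7.75 and 31.0 CPM in methylnaphthalene larvae (median 15.4 CPM), between 4.92 and 13.2 CPM in WAF larvae (median 8.05 CPM), and between 92.0 and 298 CPM in control larvae (median 159 CPM). The highest and lowest larva of a group differed 4.0-fold with methylnaphthalene, 2.69-fold with WAF and 3.24-fold in control larvae, against 29.6-fold, 7.08-fold and 12.2-fold for the summed heat shock 70 genes in the same groups.

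The ortholog group s2f_0001499003 had between 2.91 and 8.01 CPM in methylnaphthalene larvae (median 3.92 CPM), between 1.87 and 3.17 CPM in WAF larvae (median 2.52 CPM), and between 34.2 and 89.0 CPM in control larvae (median 55.98 CPM). The lowest control larva lay 4.26-fold above the highest exposed larva, the widest gap of the 5 features. In the counts behind these levels, no larva fell below 9 reads in this group or below 56 reads in LOC121878881.

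**Figure D1:**
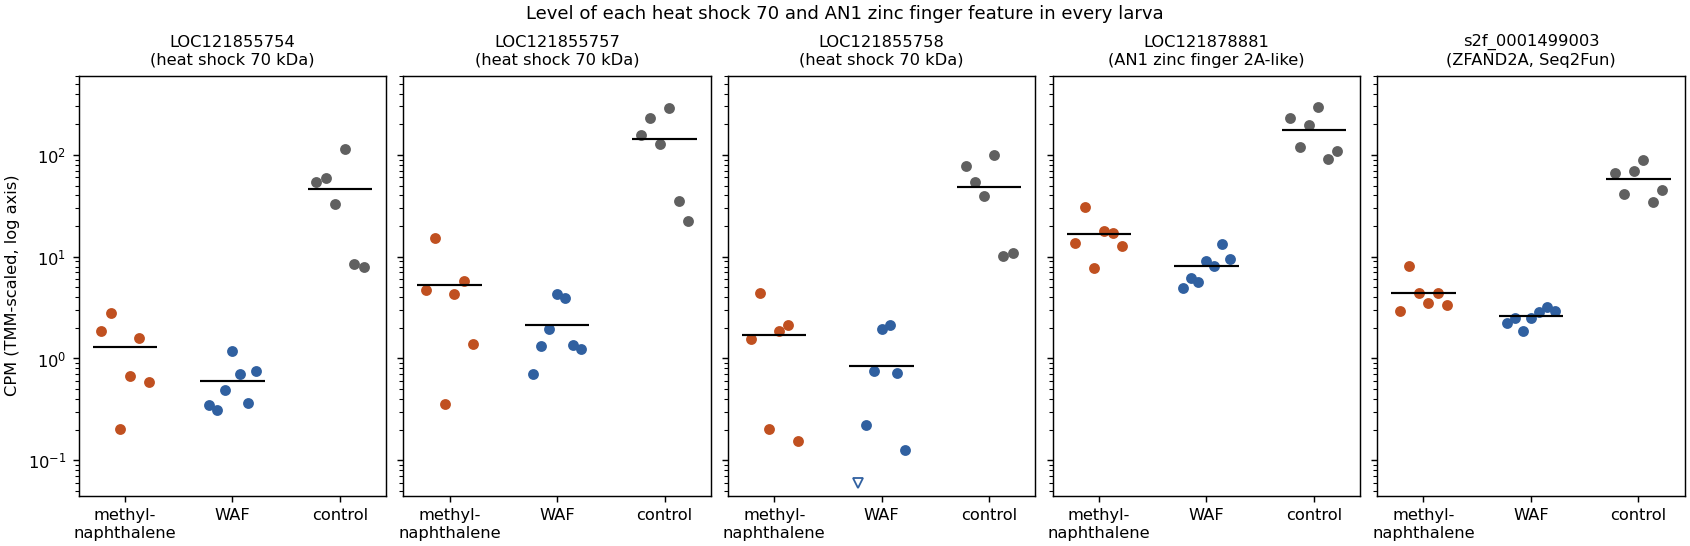
Level of the 3 heat shock 70 genes, the AN1-type zinc finger gene and the ZFAND2A ortholog group in every larva (CPM on a log axis, 1 point per larva, horizontal line at the group mean), with methylnaphthalene (n = 6), WAF (n = 7) and control larvae (n = 6) from left to right. The open triangle marks the WAF larva with 0 counts of LOC121855758, and control larvae lie above all exposed larvae in each panel.

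Summed over the heat shock 70 genes, the mean level in control larvae was 28.7 times that of methylnaphthalene larvae and 66.95 times that of WAF larvae. For LOC121878881 the same ratios were 10.5 and 21.7, and for s2f_0001499003 they were 13.1 and 22.3. In each case the ratio was greater for WAF. The 4 genes and the ortholog group were all DEGs with lower expression in both exposed groups. Of all tested features, 0.166% of genes and 0.0641% of ortholog groups were DEGs with lower expression with methylnaphthalene, and 0.107% and 0.119% with WAF. Exposed larvae that all lay below all control larvae were seen in 0.918% of genes and 0.796% of ortholog groups with methylnaphthalene, and in 0.368% and 0.339% with WAF. Both comparisons use the same 6 control larvae, and since they chose the features, nothing is read from these counts.

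The summed heat shock 70 counts stood at a different level relative to the LOC121878881 counts in exposed and control larvae. The log2 ratio of these counts averaged -1.56 ± 1.15 (SD, n = 6) in methylnaphthalene larvae, -1.42 ± 0.94 (SD, n = 7) in WAF larvae and 0.07 ± 1.05 (SD, n = 6) in control larvae. It ran between -3.35 and -0.46, between -2.44 and -0.25, and between -1.42 and 1.52 in these groups, so exposed and control larvae overlapped. As this ratio comes from the contrasts that chose the genes, it was not tested.

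Methylnaphthalene and WAF larvae were compared directly. The choice of features did not rest on this difference itself. It did use the fold changes of the same exposed larvae against control larvae, so this comparison is not fully independent of the choice. LOC121878881 was 1.04 higher with methylnaphthalene on the log2 scale (SE 0.32, 95% interval 0.41 to 1.66), and 4 of 6 methylnaphthalene larvae lay above all WAF larvae. The adjusted p was 0.0829 with edgeR's quasi-likelihood test, so the gene was not a DEG. It came to 0.0269 with DESeq2, 0.0294 with edgeR's likelihood ratio test, 0.0389 without methylnaphthalene replicate 3 and 0.0214 without WAF replicate 6. Over 28 alternatives the adjusted p lay between 0.0214 and 0.184, and the log2 difference stayed below 1.5 in all of them.

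The ortholog group s2f_0001499003 was 0.76 higher with methylnaphthalene (SE 0.26, 95% interval 0.25 to 1.26, adjusted p = 0.154 with edgeR), with 5 of 6 methylnaphthalene larvae above all WAF larvae. Over 27 alternatives its adjusted p lay between 0.0800 and 0.320. This group and LOC121878881 measure the same libraries and are not independent of each other.

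The heat shock 70 genes pointed the same way with wider intervals. The log2 differences between methylnaphthalene and WAF larvae were 1.14 for LOC121855754 (95% interval -0.14 to 2.41), 1.33 for LOC121855757 (0.01 to 2.65) and 1.01 for LOC121855758 (-0.49 to 2.52). Their adjusted p-values with edgeR were 0.399, 0.334 and 0.526. The intervals use the normal approximation, and the unadjusted p of LOC121855757 was 0.0635 with edgeR. With the counts of these genes merged into 1 feature, the log2 difference was 1.22 (SE 0.66, adjusted p = 0.368 with edgeR). None of the 5 features was a DEG between the exposed groups by edgeR's quasi-likelihood test, by DESeq2 or by limma, beside 1.08% of genes and 0.751% of ortholog groups that were DEGs with higher expression with methylnaphthalene than with WAF. With the first test, 2 of 5 features had an unadjusted p below 0.05, beside 16.7% of genes and 13.7% of ortholog groups. The intervals of all 5 features include a difference of 1 on the log2 scale, so these data do not show equal levels in the exposed groups.

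Kallisto divides reads that fit several transcripts among them, which bears on how far the heat shock 70 genes can be told apart. Each of the 4 genes has 1 transcript in the RefSeq annotation of GMGI_Hamer_2.0, and the heat shock 70 transcripts share an annotated length of 2190 bases. The estimated count of LOC121878881 was a whole number in 19 of 19 larvae (tolerance 1e-06), whereas that of LOC121855754, LOC121855757 and LOC121855758 was whole in 1, 0 and 1 larvae. Values of a single heat shock 70 gene therefore rest in part on this division, and their sum does not depend on how reads are divided among these genes.

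Within the sum, LOC121855757 held 60.1% ± 8.4 (SD, n = 6) of the counts in methylnaphthalene larvae, 60.6% ± 5.6 (SD, n = 7) in WAF larvae and 60.4% ± 5.7 (SD, n = 6) in control larvae. LOC121855754 held 19.5% ± 7.6, 21.0% ± 11.1 and 18.3% ± 2.4 of the counts in the same groups. LOC121855758 held 20.4% ± 7.6, 18.4% ± 12.49 and 21.3% ± 4.5. The spread was larger in the exposed groups, in which the sum rested on as few as 12 counts. None of the 9 differences between groups was larger than the replicate error (exact permutation, two-sided, adjusted p = 0.946 for each), the largest being -2.95 percentage points for LOC121855758 between WAF and control larvae.

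The Seq2Fun counts of s2f_0001499003 were set against the Kallisto counts of LOC121878881. The geometric mean of this ratio was 11.1% in methylnaphthalene larvae, 12.7% in WAF larvae and 13.9% in control larvae. In single larvae it ran between 7.51% and 19.0%, between 9.62% and 16.1%, and between 10.3% and 18.3% in these groups. The 3 differences between groups were within the replicate error (exact permutation of log2 ratios, two-sided, adjusted p = 0.404 for each).

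Correlations between larvae were computed inside each class, because control and exposed larvae do not overlap for these genes. Methylnaphthalene and WAF larvae did overlap and were also kept apart. Pearson's r and Spearman's rho of log2 CPM were tested by exact permutation over all orderings of the larvae, with adjustment over 33 relations. The heat shock 70 genes moved together most closely in control larvae, where r between pairs of them was 0.983, 0.986 and 0.959. In methylnaphthalene larvae these values were 0.946, 0.832 and 0.917, and in WAF larvae 0.740, 0.534 and 0.910. For LOC121855754 and LOC121855757 in methylnaphthalene larvae, r passed the adjustment (r = 0.946, exact p = 0.00278, adjusted p = 0.0306) and rho did not (rho = 0.943, exact p = 0.0167, adjusted p = 0.110). In control larvae both passed (r = 0.983, exact p = 0.00139, adjusted p = 0.0229, and rho = 1.0, exact p = 0.00278, adjusted p = 0.0458). Without the 2 larvae farthest from the median, r was 0.733 and 0.934 in these groups.

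For LOC121855754 and LOC121855758 in control larvae, r passed (r = 0.986, exact p = 0.00556, adjusted p = 0.0458, and 0.893 without the 2 farthest larvae) and rho did not (rho = 0.886, exact p = 0.0333, adjusted p = 0.110). For LOC121855757 and LOC121855758 in WAF larvae both passed (r = 0.910, exact p = 0.00119, adjusted p = 0.0229, and rho = 0.964, exact p = 0.00278, adjusted p = 0.0458), and r was 0.934 without the 2 farthest larvae. LOC121855758 had only between 0 and 46 counts in WAF larvae. Replicate 1, with 0 counts, was not among the larvae left out, and its log2 level rests on the prior count. In the other relations among heat shock 70 genes the adjusted p-values of r lay between 0.0509 and 0.309. Reads divided among these genes enter several of them, so these relations are not between independent measurements.

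LOC121878881 and the summed heat shock 70 genes, which were quantified from different reads, had r = 0.932 and rho = 0.829 in methylnaphthalene larvae (exact p = 0.0125 and 0.0583), r = 0.385 and rho = 0.357 in WAF larvae (exact p = 0.399 and 0.444) and r = 0.772 and rho = 0.771 in control larvae (exact p = 0.0917 and 0.103). The adjusted p-values of r were 0.0509, 0.517 and 0.178, so no class passed the adjustment. Larvae with more of one tended to have more of the other in methylnaphthalene larvae, where replicate 2 was highest and replicate 3 lowest for both, and r stayed at 0.901 without the 2 larvae farthest from the median. In control larvae r was 0.302 without replicates 5 and 6, the lowest for the heat shock 70 genes, so that relation rests on those larvae, and without replicate 2 it was 0.977 (adjusted p = 0.0458, exact permutation). Differences between classes in these values of r were not tested.

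**Figure D2:**
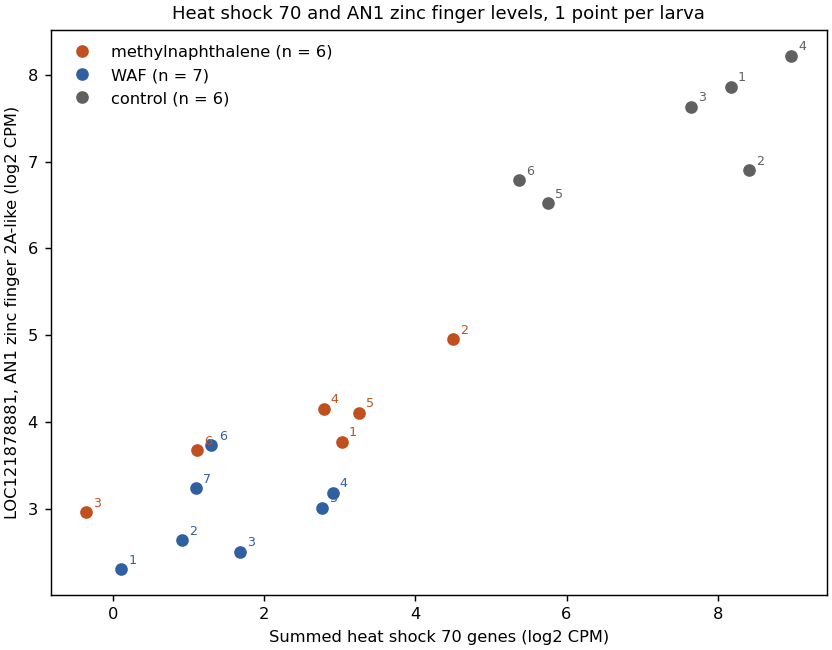
Summed level of the 3 heat shock 70 genes (x axis, log2 CPM) against the level of the AN1-type zinc finger gene LOC121878881 (y axis, log2 CPM), with 1 point per larva labelled by replicate number and coloured by group. Control larvae lie apart at the upper right with replicates 5 and 6 at their lower end, and methylnaphthalene larvae spread furthest along the x axis among exposed larvae.

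LOC121878881 and its ortholog group s2f_0001499003 had r = 0.590 in methylnaphthalene larvae, 0.826 in WAF larvae and 0.977 in control larvae (rho = 0.314, 0.857 and 0.886). The exact permutation p-values of r were 0.215, 0.0200 and 0.00972, with adjusted values of 0.309, 0.0661 and 0.0509. The counts of s2f_0001499003 lay between 22 and 110 in methylnaphthalene larvae, between 9 and 83 in WAF larvae and between 384 and 971 in control larvae. Methylnaphthalene replicate 3 was the lowest of its group in LOC121878881 (7.75 CPM) but the next to highest in s2f_0001499003 (4.41 CPM).

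Depth and the share of the non-coding RNA LOC121857831 were set against the same measures in each class, as 12 relations. In WAF larvae, LOC121878881 was lower where the non-coding share was higher (r = -0.854, rho = -1.0, exact permutation p = 0.000198 and 0.000397, adjusted p = 0.00238 and 0.00476). This order held through all 7 larvae, and r was -0.923 without replicates 6 and 7, which had the lowest shares, 7.47% and 10.4%, and the highest levels of LOC121878881, 13.2 and 9.39 CPM. Replicate 6 was also the WAF larva with the highest hepatopancreas markers. With a single larva left out, r stayed between -0.906 and -0.709, but its adjusted p was 0.192 without WAF replicate 1, 0.261 without replicate 2, 0.175 without replicate 3 and 0.242 without replicate 6 (exact permutation, 6 larvae each). The corresponding r was -0.390 in methylnaphthalene larvae (adjusted p = 0.719) and 0.674 in control larvae (adjusted p = 0.261, both by exact permutation).

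For the summed heat shock 70 genes, r with the non-coding share was -0.310 in methylnaphthalene larvae, 0.087 in WAF larvae and 0.858 in control larvae (rho = -0.371, -0.357 and 0.943). The exact permutation p of the control value was 0.0264, which did not pass the adjustment (adjusted p = 0.158). Relations with log2 library totals had r between 0.089 and 0.713, with adjusted p-values of at least 0.261. The part of the non-coding share or of the hepatopancreas markers in the level of LOC121878881 was not tested.

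The other heat shock 70 genes that the study's supplement names stood elsewhere than the chosen genes in the Kallisto table. That supplement names only the most significant genes, so the rest of the family was not examined there. A further 3 genes, all named heat shock 70 kDa protein cognate 4-like after the constitutive cognate form, were tested. Their median log2 fold change was 0.86 with methylnaphthalene against control larvae, beside -0.02 over all genes, and -0.40 with WAF against control larvae, beside 0.01 over all genes. These genes are named in a list that the study had sorted by significance between methylnaphthalene and control larvae, so their direction in that contrast is not independent evidence.

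LOC121870243, one of the cognate genes, had between 0.759 and 38.0 CPM in methylnaphthalene larvae (median 17.0 CPM), between 1.11 and 6.93 CPM in WAF larvae (median 2.96 CPM), and between 3.35 and 8.99 CPM in control larvae (median 5.07 CPM). Of the methylnaphthalene larvae, 5 of 6 lay above all WAF larvae, and replicate 3 lay below them all. It was 2.24 higher with methylnaphthalene than with WAF on the log2 scale (SE 0.56, adjusted p = 0.0309 with edgeR), which makes it the 1 DEG among the 3 cognate genes in that contrast, beside 1.08% of all genes. The call rests on single larvae, since the adjusted p was above 0.05 without methylnaphthalene replicate 4 (0.101) or 5 (0.0699), or without WAF replicate 1 (0.0711), 2 (0.0666), 3 (0.0697), 4 (0.0561) or 5 (0.0765). It was 0.157 with limma, and over 28 alternatives it lay between 0.00164 and 0.157. Against control larvae the log2 difference of 1.58 with methylnaphthalene did not pass (SE 0.58, adjusted p = 0.111), but passed with DESeq2 (0.0458) and without methylnaphthalene replicate 3 (0.0140).

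The cognate gene LOC121870242 was 1.25 higher with methylnaphthalene than with WAF (SE 0.31, adjusted p = 0.0300 with edgeR, below 0.05 in 19 of 28 alternatives), short of the fold change threshold. Against control larvae, LOC121863075 was 0.70 higher with methylnaphthalene (SE 0.18, adjusted p = 0.0168) and was also short of the threshold. With WAF against control larvae 0 of 3 cognate genes were DEGs by edgeR or DESeq2, and 0 had an unadjusted p below 0.05.

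In the Seq2Fun table, 6 of 9 ortholog groups that share the ID stem of the groups named heat shock 70 were tested. The heat shock 70-like group s2f_0000056010 had between 129 and 363 CPM in methylnaphthalene larvae (median 275 CPM), between 103.4 and 186 CPM in WAF larvae (median 119 CPM), and between 287 and 1612 CPM in control larvae (median 802 CPM). All 7 WAF larvae, as in 0.339% of all ortholog groups, and 4 of 6 methylnaphthalene larvae lay below all control larvae. The log2 fold changes were -1.62 with methylnaphthalene (SE 0.36, adjusted p = 0.00724) and -2.56 with WAF (SE 0.35, adjusted p = 0.000842, both with edgeR), so this group fell in both. Of the 6 groups, 1 was a DEG in each contrast, this one. Beside it, 0.0641% of all ortholog groups with methylnaphthalene and 0.119% with WAF were DEGs with lower expression. This group may count reads of the chosen heat shock 70 genes, which was not tested. Its fall and this count are therefore not independent of the contrasts that chose those genes. With methylnaphthalene the change was -1.43 with limma, -1.30 without control replicate 4 and -1.48 without methylnaphthalene replicate 3, below the fold change threshold.

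The other tested groups of this stem were closer to the level of control larvae. HSC70-4 (s2f_0000056024), a constitutive cognate form and the most abundant of them, had log2 fold changes of -0.41 with methylnaphthalene (SE 0.16, adjusted p = 0.194) and -0.74 with WAF (SE 0.16, adjusted p = 0.0495, and between 0.000203 and 0.190 over 27 alternatives, of which 7 were below 0.05). HSPA5 (s2f_0000056028), the form of the endoplasmic reticulum, had -0.24 and -0.27 (adjusted p = 0.683 and 0.727). The median over the 6 groups was -0.29 with methylnaphthalene and -0.26 with WAF, beside -0.03 and -0.02 over all ortholog groups.

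A second group with the ID stem of ZFAND2A, s2f_0001499002, stood at between 46.9 and 72.7 CPM in methylnaphthalene larvae, between 49.9 and 76.9 CPM in WAF larvae and between 50.2 and 59.98 CPM in control larvae. All groups overlapped. Its log2 fold changes were 0.14 with methylnaphthalene and 0.18 with WAF (SE 0.13 each, adjusted p = 0.756 and 0.740 with edgeR), against -3.69 and -4.45 for s2f_0001499003.

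Of the chaperones that work with heat shock 70 proteins, HSPBP1 and HSP90AB1 passed the adjusted p in both exposed groups, with lower levels and changes below the fold change threshold. HSPBP1 (s2f_0001620001), a nucleotide exchange factor that binds heat shock 70 proteins, had between 14.6 and 16.7 CPM in methylnaphthalene larvae, between 13.3 and 18.7 CPM in WAF larvae and between 21.5 and 56.7 CPM in control larvae, with no overlap between exposed and control larvae. Exposed larvae that all lay below all control larvae were seen in 0.796% of all ortholog groups with methylnaphthalene and in 0.339% with WAF. The log2 fold changes of HSPBP1 were -1.12 (SE 0.18, adjusted p = 0.000648) and -1.16 (SE 0.17, adjusted p = 0.00168 with edgeR). HSP90AB1 (s2f_0000398007), a cytosolic chaperone that receives clients from heat shock 70, had -0.94 (SE 0.22, adjusted p = 0.0103) and -1.14 (SE 0.21, adjusted p = 0.0153). The adjusted p of the WAF value was 0.0520 without control replicate 1 or 4, 0.0504 without WAF replicate 1 and 0.0519 without WAF replicate 3.

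In the Kallisto table, the heat shock protein HSP 90-alpha-like genes LOC121867733 and LOC121867741 had log2 fold changes of -0.80 (SE 0.22, adjusted p = 0.0303) and -1.01 (SE 0.35, adjusted p = 0.0837) with methylnaphthalene. With WAF they had -0.81 (SE 0.21, adjusted p = 0.179) and -1.53 (SE 0.33, adjusted p = 0.0648). In LOC121867741 all 7 WAF larvae lay below all control larvae, as in 0.368% of all genes. The adjusted p of LOC121867733 with methylnaphthalene was below 0.05 in 18 of 28 alternatives. It was above 0.05 with limma, with only the groups compared, without control replicate 1, 2, 3 or 4, or without methylnaphthalene replicate 1, 2, 3 or 5, and reached 0.0958. The WAF value of LOC121867741 had an adjusted p between 0.00169 and 0.243 over 28 alternatives, and passed in 6 of them. It passed with DESeq2 (0.00169), the likelihood ratio test (0.00264), only the groups compared (0.0336) and a block for the replicate number (0.0434). It also passed without methylnaphthalene replicate 3 (0.0364) or WAF replicate 6 (0.0297). LOC121867731, named dnaJ homolog subfamily A member 1-like after the J-domain partners of heat shock 70, had -0.64 with methylnaphthalene (SE 0.20, adjusted p = 0.0487, below 0.05 in 9 of 28 alternatives) and -0.61 with WAF (SE 0.19, adjusted p = 0.310).

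AHSA (s2f_0002468002), an activator of heat shock 90, had log2 fold changes of -0.60 and -0.52 with methylnaphthalene and WAF (adjusted p = 0.0841 and 0.548). HSF (s2f_0000176005), the heat shock factor itself, had -0.58 and -0.43 (adjusted p = 0.289 and 0.698, edgeR throughout). HSF was at between 1.52 and 3.72 CPM in methylnaphthalene larvae, between 1.74 and 4.85 CPM in WAF larvae and between 3.42 and 4.43 CPM in control larvae, so the groups overlapped, although 5 of 6 methylnaphthalene larvae and 6 of 7 WAF larvae lay below all control larvae.

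Small heat shock proteins hold unfolding proteins without ATP, and some of their genes were higher with methylnaphthalene. LOC121875504, heat shock protein 22-like, had between 34.9 and 147 CPM in methylnaphthalene larvae (median 71.1 CPM), between 19.9 and 33.0 CPM in WAF larvae (median 24.2 CPM), and between 8.20 and 42.2 CPM in control larvae (median 21.1 CPM). Every methylnaphthalene larva lay above every WAF larva, as in 1.23% of all genes. The gene rose by 1.70 on the log2 scale against control larvae (SE 0.38, adjusted p = 0.00689) and was 1.62 higher than with WAF (SE 0.36, adjusted p = 0.0149 with edgeR). Without methylnaphthalene replicate 2, the highest larva, these differences were 1.43 and 1.34, below the fold change threshold.

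LOC121875509, lethal(2)essential for life-like and named after a small heat shock protein of Drosophila, had between 5.55 and 33.3 CPM in methylnaphthalene larvae, between 2.71 and 7.71 CPM in WAF larvae and between 1.18 and 8.91 CPM in control larvae. It rose by 1.66 with methylnaphthalene against control larvae (SE 0.50, adjusted p = 0.0464 with edgeR). This call held in 15 of 28 alternatives, with adjusted p-values between 0.00842 and 0.136. It was lost without methylnaphthalene replicate 1, 2 or 4, without control replicate 1, 4, 5 or 6, or without WAF replicate 1, 3, 4, 5 or 7, with adjusted p-values of at least 0.0504. LOC121866438, heat shock protein 67B1-like, was 0.72 higher than in control larvae (SE 0.19, adjusted p = 0.0239) and 1.05 higher than with WAF (SE 0.18, adjusted p = 0.00322), short of the fold change threshold. The unnamed group s2f_0000291016, which shares the ID stem of HSPB9, was 0.87 higher than in control larvae (SE 0.24, adjusted p = 0.0367, below 0.05 in 15 of 27 alternatives and up to 0.101). It was 1.36 higher than with WAF (SE 0.24, adjusted p = 0.00335), which became 1.51 without methylnaphthalene replicate 3 or WAF replicate 6.

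Over the list of other chaperones in the Kallisto table, 2 of 6 genes were DEGs with methylnaphthalene against control larvae, both higher, beside 3.71% of all genes. By adjusted p alone 3 were higher and 2 lower, beside 7.30% and 1.35% of all genes. The 6 genes come from the list sorted by significance in this contrast, so the count is not independent evidence. With WAF against control larvae 0 of 6 genes were DEGs by edgeR and 1 by DESeq2, with 3 at an unadjusted p below 0.05 (8.53% of all genes), all lower, and by adjusted p alone 0, beside 0.187% of all genes with lower expression. Among 11 tested groups of the 13 listed in the Seq2Fun table, 0 were DEGs in either contrast by edgeR or DESeq2. By adjusted p alone 1 was higher and 2 were lower with methylnaphthalene, beside 5.64% and 0.613% of all groups, and 2 were lower with WAF, beside 0.201%. At an unadjusted p below 0.05 there were 6 of 11 with methylnaphthalene and 4 of 11 with WAF, beside 14.8% and 7.71% of all groups. The groups and ID stems of this list were also taken from names in the study's supplement. These counts are therefore not independent evidence either. The other groups with the stem of HSP90AB1, s2f_0000398006 and s2f_0000398009, had log2 fold changes of 0.06 and 0.19 with methylnaphthalene and of 0.05 each with WAF. With the stem of HSPB9, a small heat shock protein, HSPB9 itself (s2f_0000291014) had -0.65 with methylnaphthalene (SE 0.22, adjusted p = 0.103 with edgeR) and -0.32 with WAF. The unnamed groups s2f_0000291004, s2f_0000291010 and s2f_0000291013 had 0.64, -0.11 and 0.21 with methylnaphthalene, and none of these 6 groups passed in either contrast.

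**Figure D3:**
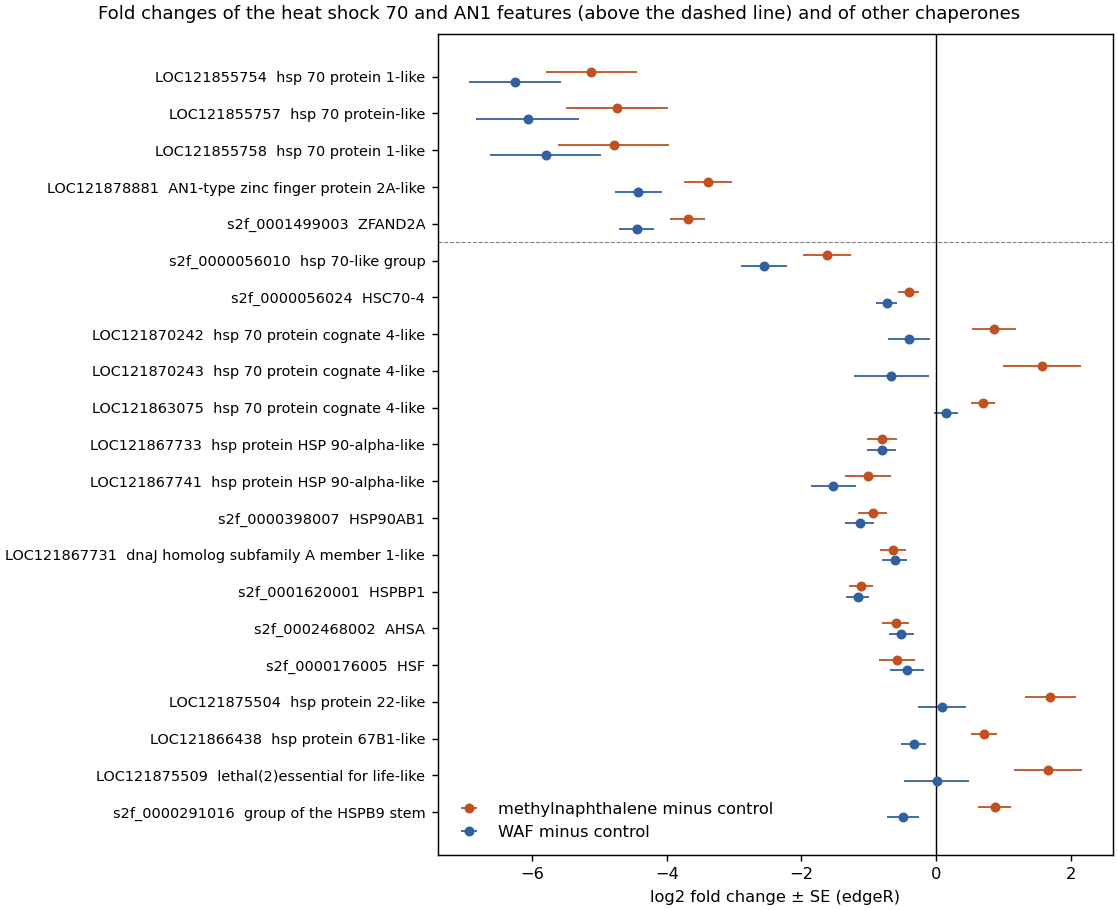
Log2 fold change with its SE (edgeR) of methylnaphthalene larvae and of WAF larvae, each against control larvae, for the heat shock 70 and AN1 features above the dashed line and for other chaperones under it. The chosen features lie between -6.26 and -3.39, the plotted heat shock 90, HSPBP1 and dnaJ features between -1.53 and -0.61, and the plotted small heat shock features above 0 with methylnaphthalene. Some listed groups are not plotted. With methylnaphthalene, HSPB9 itself (s2f_0000291014) had -0.65, s2f_0000291010 -0.11, s2f_0000291004 0.64 and s2f_0000291013 0.21. The unplotted heat shock 90 groups s2f_0000398006 and s2f_0000398009 had 0.06 and 0.19.

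The variation among control larvae was set against other chaperones in 48 relations, which were chosen after seeing the data. In control larvae the summed heat shock 70 genes had r = 0.990 with the ortholog group s2f_0000056010 (exact permutation p = 0.00139, adjusted p = 0.0333, and r = 0.995 without the 2 farthest larvae), with rho = 1.0 (exact p = 0.00278, adjusted p = 0.0333). This group may count reads of the same genes, which was not tested. LOC121878881 had r = 0.969 with HSPBP1 (exact p = 0.00139, adjusted p = 0.0333) and r = 0.959 with HSP90AB1 (exact p = 0.00278, adjusted p = 0.0444), with r of 0.946 and 0.902 without the 2 farthest larvae. With AHSA, r was 0.888 (exact p = 0.00972, adjusted p = 0.0667, and r = 0.655 without the 2 farthest larvae). In all 3 of these relations the order of the larvae was the same (rho = 1.0, exact p = 0.00278, adjusted p = 0.0333), so AHSA passed by rho and not by r. The remaining relations in control larvae had r between 0.404 and 0.955 and did not pass the adjustment for r. In exposed larvae r ran between -0.206 and 0.837 with methylnaphthalene and between -0.597 and 0.864 with WAF, and none of these passed.

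**Figure D4:**
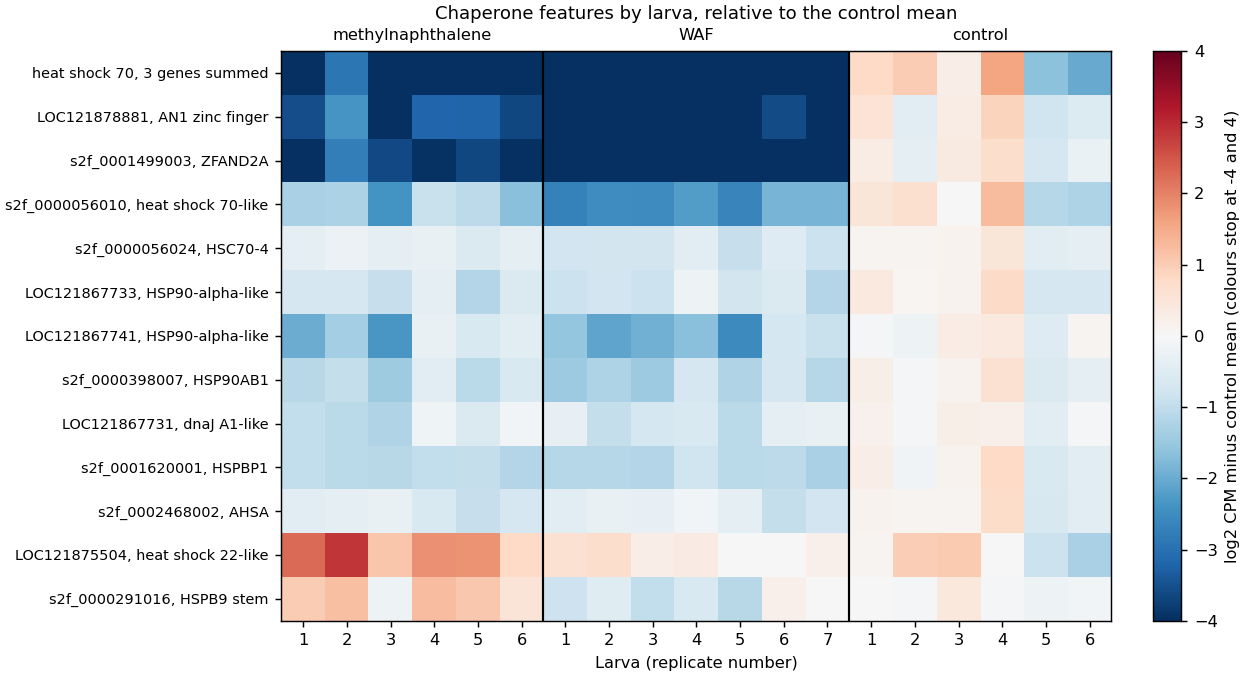
Level of the heat shock 70 sum, the AN1 features and other chaperones in each of the 19 larvae, as log2 CPM minus the mean of control larvae (colours stop at -4 and 4), with methylnaphthalene, WAF and control larvae from left to right and larvae named by replicate number. Control replicate 4 is high and control replicates 5 and 6 are low in the heat shock 70 sum and in s2f_0000056010, while LOC121875504 is high in methylnaphthalene larvae.

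Genes with the most similar pattern were sought among 15119 genes with a mean of at least 1 CPM, by Pearson's r of log2 CPM over all 19 larvae, a measure that includes the difference between classes. Closest to LOC121878881 was the sequestosome-1-like gene LOC121853632 (r = 0.962), named after a receptor that delivers ubiquitinated proteins to autophagy, with 217 ± 30.4 CPM in methylnaphthalene larvae (SD, n = 6), 183 ± 8.08 CPM in WAF larvae (SD, n = 7) and 505 ± 36.4 CPM in control larvae (SD, n = 6). It was followed by LOC121867949, a probable serine/threonine-protein kinase samkC (r = 0.952), the tubulin-folding cofactor B-like gene LOC121879951 (r = 0.927), LOC121853291 (r = 0.917) and the cytochrome P450 6k1-like gene LOC121864545 (r = 0.909). The summed heat shock 70 genes had LOC121879951 (r = 0.938), LOC121853632 (r = 0.936), LOC121853291 (r = 0.921), LOC121869088 (r = 0.890) and LOC121867949 (r = 0.890). LOC121864545 reached the limit of 1 CPM only through control larvae (mean 3.13 CPM), with means of 0.238 CPM in methylnaphthalene and 0.106 CPM in WAF larvae. LOC121867949 had means of 1.48, 0.173 and 12.0 CPM in methylnaphthalene, WAF and control larvae. As the extremes of many, these values carry no p. They also include the difference between exposed and control larvae that chose the features, so they are not independent evidence.

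After each class mean was subtracted, other genes took these places. LOC121878881 was then closest to LOC121879307 (r = 0.850), the transcription factor AP-1-like gene LOC121879991 (r = 0.824), the uncharacterized gene LOC121875507 (r = 0.808), LOC121858980 (r = 0.805) and the transcription factor kayak-like gene LOC121862308 (r = 0.796). AP-1-like and kayak-like genes are named after Jun and the Drosophila form of Fos, which bind DNA together. For the summed heat shock 70 genes the closest were LOC121858980 (r = 0.849), LOC121863407 (r = 0.824), the proton-coupled folate transporter-like gene LOC121866575 (r = 0.796), LOC121871242 (r = 0.796) and LOC121876934 (r = 0.764). None of these genes was among the 5 closest over all larvae.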

How the data were processed

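The members and lists were chosen with earlier results of these data known. The authors' read filter asked for a quality score of at least 25, and they deposited 2 tables without normalization. In the first they deposited expected counts, estimated by Kallisto per RefSeq transcript of GMGI_Hamer_2.0. The second holds deposited whole counts for each Seq2Fun ortholog group (Crustaceans database, at most 2 mismatches, matching length of at least 19, BLOSUM62 score of at least 80). Here the transcripts were matched to genes through RefSeq, and their estimates were added up by gene and rounded. Features with at least 4 counts in total were kept, and the 15% with the smallest interquartile range were removed. All 19 larvae entered 1 quasi-likelihood fit without covariates (edgeR 4.0.16 in R 4.3.3, TMM), with Benjamini-Hochberg adjustment over each table. P-values measure the spread between larvae of 1 experiment. Correlations used log2 CPM with a prior count of 0.5 (scipy 1.17.1), and the scripts were tested on simulated data. DESeq2 1.42.0, limma 3.58.1, the likelihood ratio test, other filters and scalings, fits with only the compared groups, a block for the replicate number and each larva left out in turn were the alternatives, and merging of the heat shock 70 genes was added after seeing the data.

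No sequences are shown, since none of these genes came with one in the sources used here. Families were therefore taken from product names in the study's supplement and from shared ID stems of ortholog groups, in place of a protein search. Named genes are the 5 features, every listed gene that was a DEG or otherwise the 3 most abundant of each list, and the 5 genes closest in pattern. Listed genes beyond this rule were named after their values were seen. Tissue markers were matched by product name in the same supplement, which here names only the most significant genes, and no nervous system marker was matched.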

Additional observations from a re-analysis of the deposited data

Results flagged for a closer look

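In all, 3 values stood far from the rest of their group by Dixon's criterion, among 30 groups of larvae examined, and chance flags about 1 in 20 groups. In LOC121855757 the highest methylnaphthalene larva, replicate 2, had 15.2 CPM and the next 5.83 CPM. In s2f_0001499003 the same larva had 8.01 CPM and the next 4.41 CPM. The share of LOC121855757 in the summed heat shock 70 counts was 72.1% in WAF replicate 2 and 62.5% in the next WAF larva, where the counts are few. Methylnaphthalene and WAF larvae differed in the cognate gene LOC121870243, by 2.24 on the log2 scale, and in the heat shock protein 22-like gene LOC121875504, by 1.62, both tested as the difference between the exposed groups with edgeR.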

How the results depend on the processing

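The direction and call of all 5 features between methylnaphthalene and WAF larvae were kept under every alternative that was run. Counts of DEGs in the lists moved. Without a fold change threshold the Kallisto heat shock 70 list had 1 with methylnaphthalene and 2 between exposed groups, and the Kallisto chaperone list 5 and 2, while the Seq2Fun lists had 2 heat shock 70 groups with WAF and 3, 2 and 1 chaperone groups with methylnaphthalene, with WAF and between exposed groups. DESeq2 gave 1 heat shock 70 gene with methylnaphthalene, and 1 chaperone gene with WAF and 2 between exposed groups, as did the likelihood ratio test for the chaperones. The heat shock 70 call between exposed groups went to 0 with limma, without TMM or with only the groups compared. With limma the Seq2Fun heat shock 70 call with methylnaphthalene and the chaperone call between exposed groups also went to 0. With only the groups compared, the chaperone genes had 1 DEG with methylnaphthalene and 1 with WAF. Deviations of same-numbered larvae from their class means had correlations between -0.40 and 0.64. At most 4 of 6 pairs were over 0.1, and at most 2 of 6 larvae were closest to their own number. So few pairs cannot decide whether the numbers pair larvae. The block moved the DEGs between exposed groups to 599 genes and 257 ortholog groups, against 207 and 82 without it, and gave the Kallisto chaperone list had 1 DEG with WAF and 0 between exposed groups, and the Seq2Fun list 1 between exposed groups. Without TMM, the relation of summed heat shock 70 and LOC121878881 in methylnaphthalene larvae passed the adjustment (r = 0.925, exact adjusted p = 0.0303), and that of the non-coding share and summed heat shock 70 in WAF larvae was -0.116. As a log2 ratio, the WAF difference of the LOC121855757 share was -0.0031. With each larva left out in turn, list counts stayed the same or ran from 0 to 1 or from 0 to 2. For summed heat shock 70 and LOC121878881 in control larvae, r ran from 0.667 to 0.977. For the library total, r ran from -0.155 to 0.681 (WAF, heat shock 70), from -0.181 to 0.568 (control, heat shock 70) and from -0.189 to 0.462 (control, LOC121878881). For the non-coding share it ran from -0.052 to 0.439 (WAF, heat shock 70), from -0.526 to 0.471 (methylnaphthalene, heat shock 70), from -0.801 to 0.207 (methylnaphthalene, LOC121878881) and from -0.906 to -0.709 (WAF, LOC121878881). Share differences between methylnaphthalene and WAF ran from -3.30 to 1.23, from -2.04 to 2.61 and from -1.04 to 4.77 percentage points for LOC121855754, LOC121855757 and LOC121855758, those between methylnaphthalene and control from -0.40 to 3.14, from -1.84 to 2.80 and from -2.40 to 1.82, and those between WAF and control from -1.73 to 1.47 for LOC121855757 and from -5.19 to 0.11 for LOC121855758. The causes were not tested. Counts as low as 0 to 4 in single exposed larvae limit the heat shock 70 genes.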
